A study of Mus musculus with 2 samples.

Results

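The 8 genes described here are the 4 receptors of the epidermal growth factor (EGF) receptor family, namely Egfr, Erbb2, Erbb3 and Erbb4, and the 4 ligands Hbegf, Ereg, Tgfa and Btc. They were taken by their symbols from the 31053 genes counted in both matrices, and all 8 had 1 row in each. The study sequenced single luminal cells sorted from the mammary gland of 3.5-month-old mice on the FVB/NJ background. One library came from the Sox9-GFP genotype (called WT), and the other from Sox9-GFP;C3-TAg (called C3-TAg). Both genotypes carry a Sox9 reporter allele, and C3-TAg mice also carry a transgene in which a C3(1) promoter drives the SV40 large T antigen, which binds p53 and the retinoblastoma proteins and leads to mammary tumours. The sort gate and the number of mice behind each library are not given in the sources used here. With 1 library per genotype no test between genotypes could be made, genotype and library cannot be told apart, and the 95% intervals below are exact Poisson or binomial intervals that cover counting error only.

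ERBB receptors are transmembrane tyrosine kinases that pair on binding a ligand and signal through the RAS-MAPK and PI3K pathways. EGFR binds the EGF-type ligands. ERBB4 binds HB-EGF, epiregulin, betacellulin and the neuregulins, ERBB3 binds neuregulins and has a weak kinase, and ERBB2 has no known ligand and serves as a partner for the other receptors. The ligands are made as membrane-bound precursors and are released by sheddases such as ADAM17. In the mammary gland amphiregulin (Areg), released by hormone-sensing luminal cells under estrogen, acts on EGFR in other cells and is needed for duct growth.

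Each kept cell was placed in 1 of 3 compartments. Cells with at least 5 UMIs (unique molecular identifiers, 1 per captured transcript) per 10000 from Areg, Pgr, Esr1 and Cited1 together were called hormone-sensing. The other cells were split by the share of their UMIs that came from the caseins Csn1s1, Csn1s2a, Csn2 and Csn3, into casein-high cells at 0.5% or above and casein-low cells below it. In WT 2718 of 7039 cells (38.6%) were hormone-sensing, 3745 (53.2%) casein-high and 576 (8.18%) casein-low. In C3-TAg 2024 of 7917 cells (25.6%) were hormone-sensing, 2492 (31.5%) casein-high and 3401 (43.0%) casein-low. The compartments held between 4748326 and 46781010 UMIs, and the median cell had 7609 to 11802. Levels are given in CPM, the UMIs of a gene divided by the UMIs of all genes in that compartment and multiplied by 1000000.

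The luminal label was checked against its markers. Epcam stood at 2927 to 7101 CPM and Krt8 at 2832 to 7256 CPM over the 6 compartments. Of 12 non-epithelial markers none exceeded 17.3 CPM, the level of the leukocyte gene Tyrobp in WT casein-low cells. Among the basal markers, Krt14 reached 463 CPM in C3-TAg casein-high cells and Krt17 383 in C3-TAg casein-low cells. The other basal markers did not exceed the 45.5 CPM of Krt5 in WT casein-low cells. Outside the rule, the prolactin receptor gene Prlr was 2504 CPM in WT hormone-sensing cells against 71.0 and 289 in the WT casein-high and casein-low cells, and the secretory factor Elf5 was 8.45 against 312 and 134. In C3-TAg hormone-sensing cells Prlr was 1505 CPM and Elf5 13.2. In C3-TAg 400 of the 2024 hormone-sensing cells (19.8%) met the rule through Areg with no UMI of Pgr, Esr1 or Cited1. In WT 31 of 2718 (1.14%) did so. The marker levels of these 400 cells were Prlr 307, Foxa1 17.2, Elf5 38.9 and Kit 67.2 CPM. The other C3-TAg hormone-sensing cells had 1840.4, 117, 5.95 and 5.57 CPM, and the C3-TAg casein-low cells 67.0, 3.59, 76.8 and 80.1. Each marker of the 400 cells lay between these levels, so that the markers bear out the name only in part. Ratios that rest on C3-TAg hormone-sensing cells are therefore also given without them where this changed a call or moved a value by over 1.5 times. Cells with at least 2 UMIs of G2M genes made up 1.84%, 2.22% and 2.08% of the WT hormone-sensing, casein-high and casein-low cells and 21.1%, 76.2% and 79.3% of those in C3-TAg.

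Among the receptors, Egfr, the receptor of amphiregulin and the other EGF-type ligands, had the widest range over the compartments of WT. It stood at 1.13 CPM (95% interval 0.760 to 1.61, 30 UMIs) in WT hormone-sensing cells, 20.3 (19.0 to 21.6) in casein-high cells and 28.9 (24.2 to 34.1) in casein-low cells. In C3-TAg the same compartments stood at 9.35 (7.95 to 10.9, 159 UMIs), 19.2 (17.6 to 20.8) and 29.5 (27.6 to 31.4) CPM. The order over the 6 compartments was therefore WT hormone-sensing, C3-TAg hormone-sensing, both casein-high compartments and both casein-low compartments, and the genotypes could not be told apart by counting error within either of the last 2 steps. Relative to all other cells of its library, Egfr in hormone-sensing cells was 18.7-fold lower in WT (13.0 to 27.9) and 2.63-fold lower in C3-TAg (2.23 to 3.12). With a stricter cell filter (at least 2000 UMIs and at most 5% mitochondrial) the C3-TAg ratio was 0.868, within 1.5-fold. Cells outside the hormone-sensing compartment held 97.3% of the Egfr UMIs of WT and 90.4% of those of C3-TAg.

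The Egfr gene (ENSMUSG00000020122) lies on the plus strand at chr11:16752203-16918158 of GRCm38. The ligand gene Btc (ENSMUSG00000082361), which was highest in hormone-sensing cells where Egfr was lowest, lies on the minus strand at chr5:91357261-91402994, and Tgfa (ENSMUSG00000029999), which encodes transforming growth factor alpha, at chr6:86195223-86275719 on the plus strand. The 250 bases before the RefSeq start on GRCm38.p6 are shown for these 3 genes, because Egfr was lowest and Btc highest in hormone-sensing cells of both libraries, with Tgfa between its extremes there; capitals mark the GC box GGGCGG, to which SP1-type factors bind, on either strand. The windows are chr11:16751953-16752202 (plus) for Egfr, chr6:86194972-86195221 (plus) for Tgfa and chr5:91402995-91403244 (minus) for Btc, read 5′ to 3′ along the gene.
Egfr: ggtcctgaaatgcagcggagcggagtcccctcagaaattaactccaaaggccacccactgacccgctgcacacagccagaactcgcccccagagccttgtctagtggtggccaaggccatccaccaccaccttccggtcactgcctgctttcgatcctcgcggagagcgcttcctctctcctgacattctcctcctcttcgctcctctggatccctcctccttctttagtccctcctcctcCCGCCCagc
Tgfa: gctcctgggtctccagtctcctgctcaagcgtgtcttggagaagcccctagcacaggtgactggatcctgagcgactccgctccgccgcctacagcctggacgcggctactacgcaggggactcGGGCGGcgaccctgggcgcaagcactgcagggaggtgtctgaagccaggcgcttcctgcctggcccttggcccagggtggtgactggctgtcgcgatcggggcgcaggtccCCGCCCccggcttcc
Btc: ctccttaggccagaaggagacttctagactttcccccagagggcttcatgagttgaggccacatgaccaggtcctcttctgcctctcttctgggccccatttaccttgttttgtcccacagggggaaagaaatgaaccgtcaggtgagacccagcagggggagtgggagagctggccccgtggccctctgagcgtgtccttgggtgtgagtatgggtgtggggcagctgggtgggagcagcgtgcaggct
Egfr held 1 GC box, 9 bases before the start, Tgfa held 2, at 126 and 15 bases, and Btc held none. A GC box was present in 32.7% of 32851 such windows. The AP-1 site TGANTCA (6.75% of windows), the CRE TGACGTCA (1.55%), the TATA box TATAAA (12.4%) and the palindromic estrogen response element with a spacer of 3 bases (0.0639%) were searched on both strands and matched none of the 3 windows. A promoter entry was given for 5 of the 8 members, and the windows of Erbb2 and Erbb4 held none of the 5 motifs.

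**Figure D1:**
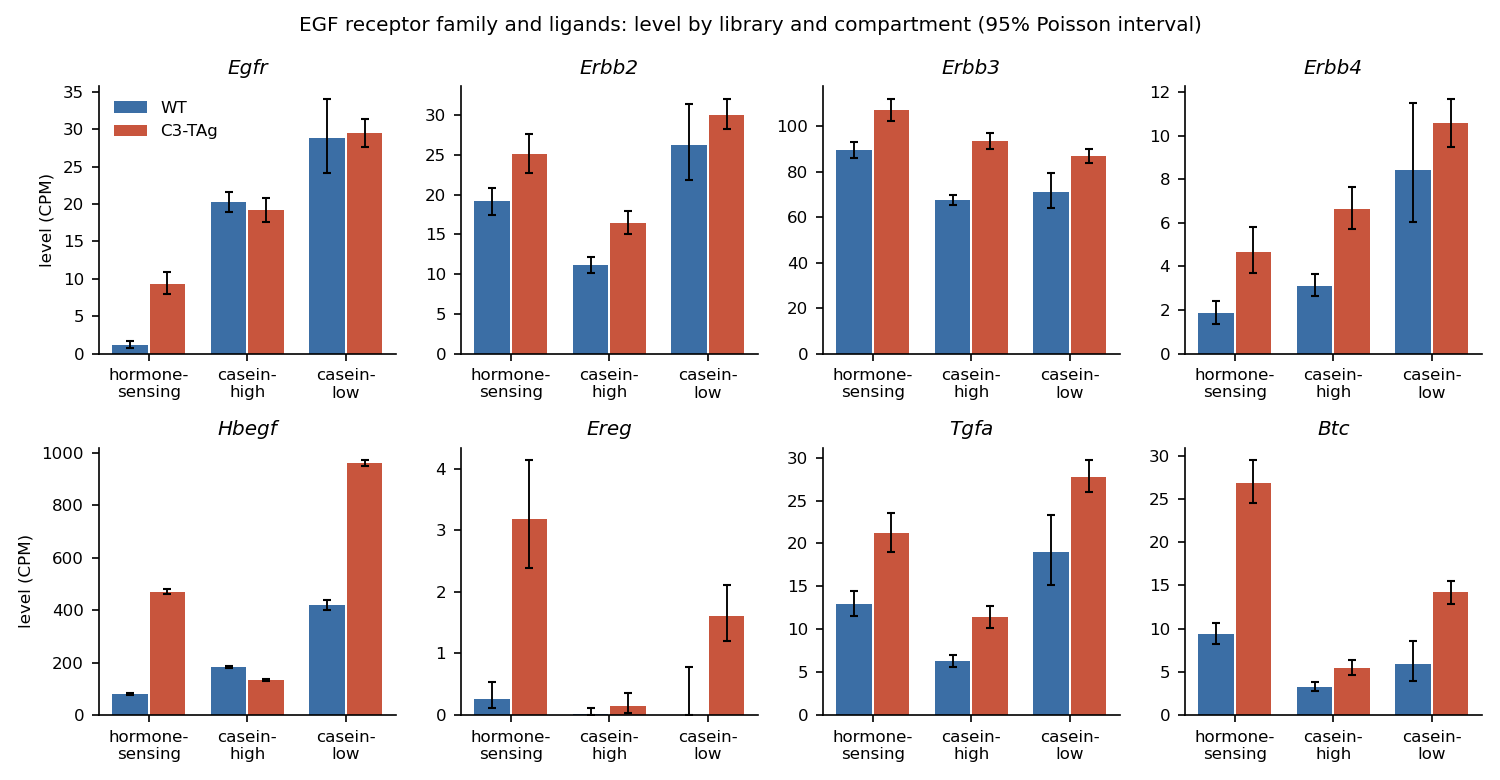
Level of each gene in CPM, with a scale of its own in each panel, in the hormone-sensing, casein-high and casein-low cells of the WT and C3-TAg libraries, with exact 95% Poisson intervals for counting error. Egfr was lowest in WT hormone-sensing cells (1.13 CPM), whereas Btc was highest in C3-TAg hormone-sensing cells (26.9 CPM) and Hbegf in C3-TAg casein-low cells (961 CPM).

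Erbb2, the ligandless partner receptor (ENSMUSG00000062312, chr11:98412470-98437716, plus strand), was 19.2 CPM (17.5 to 20.9) in WT hormone-sensing cells, 11.1 (10.1 to 12.1) in casein-high cells and 26.3 (21.9 to 31.4) in casein-low cells. In C3-TAg it was 25.2 (22.8 to 27.7), 16.5 (15.0 to 18.0) and 30.1 (28.3 to 32.1) CPM in the same order. Casein-high cells were thus lowest in both libraries, and the C3-TAg hormone-sensing and WT casein-low levels overlapped in their intervals. Erbb3, the neuregulin receptor with a weak kinase (ENSMUSG00000018166, chr10:128567523-128589652, minus strand), was the flattest member. It stood at 89.5 (85.9 to 93.1), 67.5 (65.1 to 69.9) and 71.2 (63.8 to 79.2) CPM in WT and 107 (102 to 112), 93.3 (89.8 to 96.9) and 86.8 (83.6 to 90.0) in C3-TAg. None of its 7 ratios between compartments or genotypes reached 1.5-fold, in the counts as used or under any of the alternatives run (0.889 to 1.47).

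Erbb4, which can bind neuregulins and several EGF-type ligands (ENSMUSG00000062209, chr1:68032186-69108059, minus strand), was 1.84 CPM (1.36 to 2.43) in WT hormone-sensing cells, 3.1 (2.62 to 3.65) in casein-high cells and 8.42 (6.02 to 11.5) in casein-low cells. In C3-TAg it was 4.65 (3.68 to 5.79), 6.63 (5.72 to 7.65) and 10.6 (9.47 to 11.7) CPM. Both libraries had the same order, as for Egfr, with hormone-sensing cells 1.95-fold below the other cells in WT (1.42 to 2.73) and 1.88-fold in C3-TAg (1.48 to 2.41). The C3-TAg ratio of Erbb4 was 0.870 with the stricter filter and 0.713 with a hormone-sensing threshold of 3 per 10000, both within 1.5-fold.

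Of the ligands, Hbegf, which encodes heparin-binding EGF-like growth factor and is known as an immediate early gene in many cells, differed between all 6 compartments beyond counting error. It was 78.8 CPM (75.5 to 82.3) in WT hormone-sensing cells, 182 (178 to 186) in casein-high cells and 419.7 (401 to 439) in casein-low cells. In C3-TAg it was 471 (461 to 482), 135 (131 to 139) and 961 (951 to 972) CPM. The lowest level was in WT hormone-sensing cells and the highest in C3-TAg casein-low cells, and no pair of the 6 intervals overlapped. Of 12620 Hbegf UMIs in WT, 67.6% lay in casein-high cells, 16.6% in hormone-sensing cells and 15.8% in casein-low cells. Of 42911 in C3-TAg, 72.3% lay in casein-low cells, 18.7% in hormone-sensing cells and 9.01% in casein-high cells. The casein-low cells held 6.08% of all WT UMIs and 41.4% of all C3-TAg UMIs.

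Tgfa was 12.9 CPM (11.6 to 14.4) in WT hormone-sensing cells, 6.28 (5.59 to 7.05) in casein-high cells and 19.0 (15.2 to 23.3) in casein-low cells. In C3-TAg it was 21.2 (19.0 to 23.5), 11.4 (10.2 to 12.7) and 27.8 (26.0 to 29.7) CPM. The casein-low cells were highest and the casein-high cells lowest in both libraries. Btc, which encodes betacellulin, was 9.39 CPM (8.26 to 10.6) in WT hormone-sensing cells, 3.27 (2.77 to 3.83) in casein-high cells and 5.90 (3.92 to 8.52) in casein-low cells. In C3-TAg it was 26.9 (24.5 to 29.5), 5.41 (4.59 to 6.33) and 14.2 (12.9 to 15.5) CPM. Hormone-sensing cells were highest for Btc in both libraries and held 58.0% of its UMIs in WT and 42.8% in C3-TAg, against 34.1% and 21.8% of all UMIs.

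Ereg, which encodes epiregulin (ENSMUSG00000029377, chr5:91074622-91093646, plus strand), had few UMIs in WT, 7 in hormone-sensing cells, 1 in casein-high cells and 0 in casein-low cells. C3-TAg had 54, 4 and 52 UMIs, or 3.18 CPM (2.39 to 4.14), 0.140 CPM and 1.61 CPM (1.20 to 2.11). The 110 Ereg UMIs of C3-TAg were split between the hormone-sensing (49.1%) and casein-low (47.3%) cells.

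**Figure D2:**
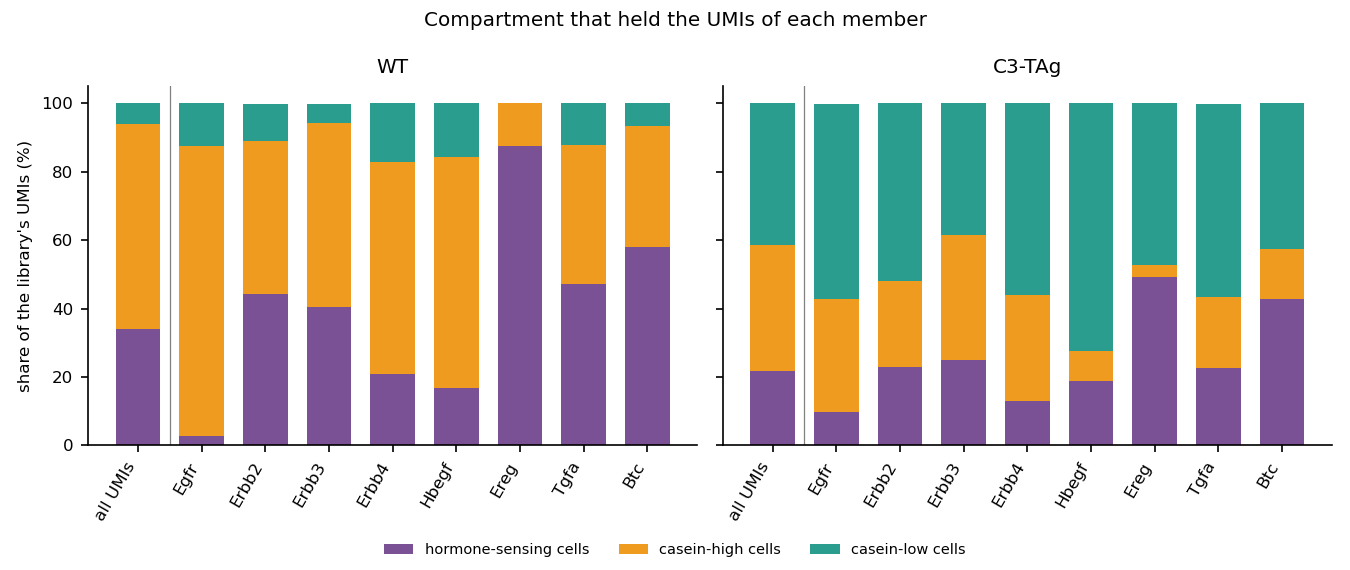
Share of the UMIs of each gene found in the hormone-sensing, casein-high and casein-low cells of each library, in percent, beside the share of all UMIs. The Ereg bar of WT rests on 8 UMIs. For Hbegf the casein-high share was 67.6% in WT and the casein-low share 72.3% in C3-TAg, while Egfr UMIs lay mostly outside hormone-sensing cells in both libraries (97.3% and 90.4%).

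The first comparison asked which members differed between hormone-sensing and other cells of the same library. In WT 3 of the 7 members with at least 20 UMIs were at least 1.5-fold higher in hormone-sensing cells, namely Erbb2 (1.53-fold, 1.36 to 1.73), Tgfa (1.73-fold, 1.49 to 2.01) and Btc (2.67-fold, 2.20 to 3.25). Another 3 were at least 1.5-fold lower, Egfr, Erbb4 and Hbegf (2.59-fold, 2.47 to 2.72), and Erbb3 was within that range at 1.32-fold. Of all genes measured 58.6% passed 1.5-fold in this comparison, 37.5% higher and 21.1% lower. The 3 of 7 members called higher are near that share, and the 3 of 7 called lower are above it. With 7 members measured no more is read from these counts. With trimmed-mean (TMM) scaling, which lowered each log2 ratio here by 0.27, 50.9% of the called genes were higher against 64.0% without it. Under TMM scaling Erbb2 (1.27) and Tgfa (1.44) no longer passed. The Erbb2 call was also lost, at 1.37 to 1.49, with doublets kept, a threshold of 10 per 10000, the stricter filter, totals without the rule genes and means over cells.

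In C3-TAg Btc was 2.68-fold higher in hormone-sensing cells (2.37 to 3.03) and Ereg 3.46-fold (2.33 to 5.11), Egfr and Erbb4 were lower as given above, and 4 members were within 1.5-fold, against 44.3% of all genes called in either direction (19.9% higher, 24.4% lower). Without the G2M cells the Btc ratio was 4.44 in C3-TAg and 2.74 in WT. Erbb2 and Tgfa, higher in WT hormone-sensing cells, had ratios of 1.06 and 1.05 in C3-TAg. The Hbegf ratio was 0.823 (0.803 to 0.843) with all hormone-sensing cells and 0.288 without the 400 cells that held Areg alone, and the Egfr ratio was 0.380 and 0.0887, respectively. Without those cells Ereg was 1.56-fold higher. With the stricter filter, which left 594 C3-TAg hormone-sensing cells, Hbegf turned to 1.76-fold higher in them.

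The hormone-sensing compartment of C3-TAg was then described by the rule genes its cells held. In the 1624 cells with a UMI of Pgr, Esr1 or Cited1, Egfr was 2.18 CPM (1.46 to 3.14) and Hbegf 165 (158 to 172). In the 400 cells with Areg alone, Egfr was 34.9 CPM (29.2 to 41.5) and Hbegf 1564 (1524 to 1605), and Ereg was 9.40 (6.55 to 13.1) against 1.43 (0.861 to 2.23). These cells thus had Egfr close to and Hbegf above the C3-TAg casein-low cells. Tgfa was 37.1 CPM (31.1 to 43.8) with Areg alone and 16.7 (14.6 to 19.1) otherwise. Btc was alike in both, at 25.0 CPM (20.2 to 30.6) and 27.5 (24.7 to 30.5).

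The WT cells with Pgr, Esr1 or Cited1, of which there were 2687, had Egfr at 0.873 CPM (0.553 to 1.31), Hbegf at 77.4 (74.1 to 80.8), Tgfa at 13.0 and Btc at 9.29 (8.17 to 10.5). Within such cells the C3-TAg levels of all 4 were above those of WT. Among the marker genes of the Areg-alone cells, Kit was 67.2 CPM against 5.57 in the other C3-TAg hormone-sensing cells, and Foxa1 was 17.2 against 117. The immediate early gene Atf3 was 741 CPM against 418. Which cell type these 400 cells belong to was not tested.

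**Figure D3:**
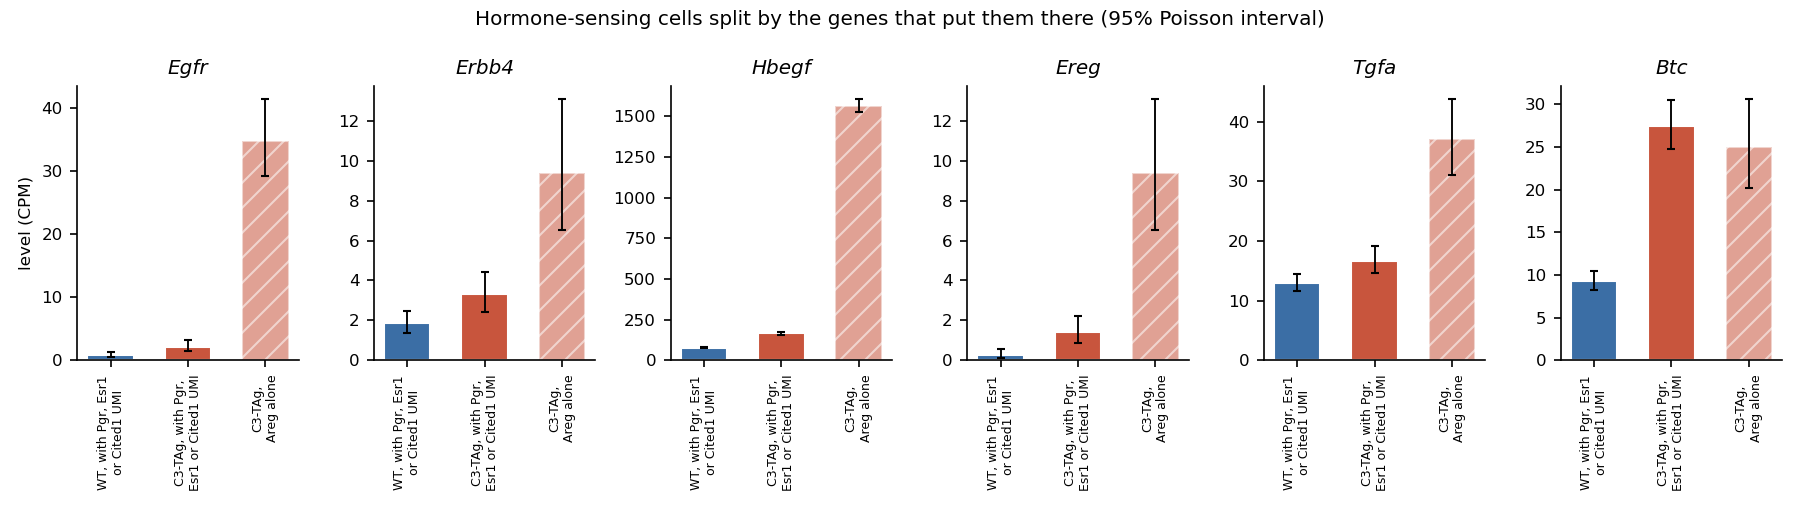
Levels of 6 members in CPM, with a scale of its own in each panel and exact 95% Poisson intervals, in WT and C3-TAg hormone-sensing cells with a UMI of Pgr, Esr1 or Cited1 and in those of C3-TAg with Areg alone. In C3-TAg Egfr was 2.18 and 34.9 CPM and Hbegf 165 and 1564 CPM in these cells, while Btc was 27.5 and 25.0 CPM.

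Cells were also ordered by the summed level of the 4 rule genes, in steps of 0 to 1, 1 to 3, 3 to 5, 5 to 10, 10 to 20, 20 to 40, 40 to 80 and at least 80 UMIs per 10000. Over these steps Egfr was 21.2, 20.1, 20.6, 10.8, 1.45, 0.914, 0.101 and 0.241 CPM in WT and 22.7, 28.5, 35.9, 29.8, 14.8, 3.82, 0.624 and 0.365 in C3-TAg. Btc was 3.39, 3.93, 10.3, 6.07, 4.07, 7.84, 9.59 and 17.4 CPM in WT. In C3-TAg it was 9.13, 11.9, 15.3, 17.2 and 16.0 over the first 5 steps and 31.4 and 50.4 over the last 2. The C3-TAg value of Btc for the step of 20 to 40 is not given here. From 10 to 20 per 10000 upward Btc was higher at each step given and Egfr lower, save for the last WT step of Egfr. Below it Egfr and Btc had no opposite order. The cells with the most rule-gene RNA thus had little Egfr and, among the steps given, the most Btc in either genotype. Just outside and just inside the threshold (3 to 5 and 5 to 10 per 10000), Egfr was 20.6 and 10.8 CPM in WT and 35.9 and 29.8 in C3-TAg, and Hbegf was 304 and 139 in WT and 1363 and 1424 in C3-TAg.

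The next comparison set casein-high against casein-low cells within each library. In WT 5 members were at least 1.5-fold lower in casein-high cells, namely Erbb2 (2.38-fold, 1.94 to 2.90), Erbb4 (2.72-fold, 1.87 to 3.88), Hbegf (2.30-fold, 2.19 to 2.42), Tgfa (3.02-fold, 2.35 to 3.83) and Btc (1.80-fold, 1.16 to 2.71). Egfr was 1.42-fold lower (1.18 to 1.70) and Erbb3 did not pass 1.5-fold, against 34.5% of all genes past that fold, 8.69% higher and 25.8% lower. In C3-TAg 7 members were lower, with Hbegf 7.12-fold (6.89 to 7.36), Ereg 11.5-fold (4.24 to 43.9), Btc 2.62-fold (2.18 to 3.16), Tgfa 2.43-fold (2.14 to 2.77), Erbb2 1.83-fold (1.64 to 2.05), Erbb4 1.59-fold (1.33 to 1.91) and Egfr 1.54-fold (1.38 to 1.71). The background in C3-TAg was 39.6% of genes past 1.5-fold, 8.93% higher and 30.6% lower.

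The scaling moved this comparison. TMM scaling raised each log2 ratio by 0.34 in WT and 0.29 in C3-TAg, and 52.1% of the genes called in WT were then higher against 25.2% without it, while in C3-TAg the share was 46.2% against 22.6%. Under it 4 members in place of 7 were lower in C3-TAg casein-high cells, as Egfr (0.797), Erbb2 (0.669) and Erbb4 (0.769) no longer passed, and the Btc ratio of WT (0.700) no longer passed either. Without the G2M cells Ereg in C3-TAg had 0 UMIs in casein-high and 4 in casein-low cells. This was under the minimum of 20, and Ereg was no longer called. Its value of 0.595 there sets the casein-high cells at 3 counts and is an upper bound, not a measured ratio.

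Over 7 steps of casein share, from under 0.05% to at least 10% of UMIs, Hbegf in non-hormone-sensing C3-TAg cells was 1109, 707, 315, 189, 99.2, 74.6 and 38.6 CPM, lower at each step. In WT it was 378, 453, 410.0, 299, 188, 134 and 121 CPM, with no order among the first 3 steps. The genotypes crossed: C3-TAg was above WT in the first 2 steps and below it in the other 5. Egfr was 14.4, 31.3, 31.3, 31.7, 22.1, 15.4 and 12.7 CPM in WT and 29.3, 31.9, 27.8, 24.1, 16.2, 11.9 and 14.2 in C3-TAg, so that both were lower above 2% than between 0.05% and 2% casein, while the lowest WT step, of 94 cells, was low as well. Btc was above WT in C3-TAg in 6 of the 7 steps, with 15.0 against 5.77 CPM in the first and 0 UMIs in the 76 C3-TAg cells of the last. Erbb3 varied between 54.4 and 75.2 CPM in WT and between 72.1 and 100.3 in C3-TAg.

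The immediate early gene Atf3 was 1089.9, 724, 436, 219, 104, 58.5 and 56.9 CPM over these steps in C3-TAg, lower at each step like Hbegf. In WT Atf3 was 626, 225, 70.8, 88.6, 58.2, 58.8 and 46.3 CPM, low already at the third step, where Hbegf was still 410.0. Egr1 ran from 837 to 80.3 CPM in C3-TAg. Such genes can respond to tissue dissociation as well as to growth factors, and their part in the Hbegf levels was not tested. The lowest WT step held 94 cells, with Prlr at 1032 CPM and Foxa1 at 62.0 CPM, against 2504 and 109.5 CPM in the WT hormone-sensing cells.

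**Figure D4:**
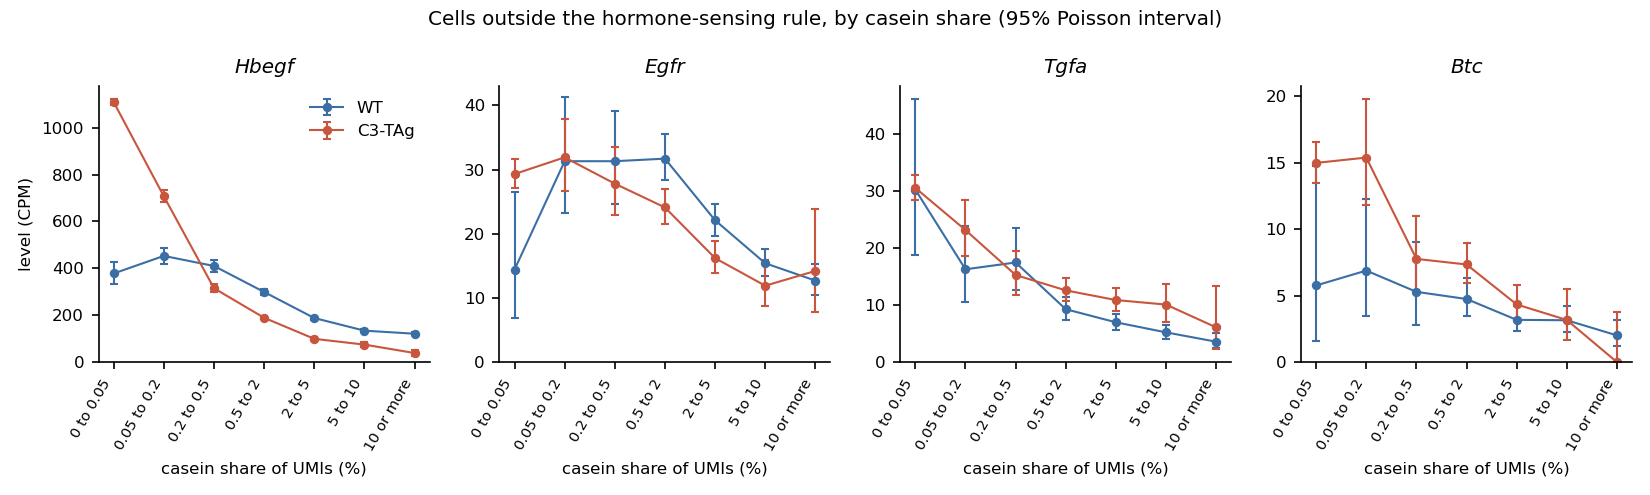
Levels in CPM of Hbegf, Egfr, Tgfa and Btc in non-hormone-sensing cells over 7 steps of casein share, for WT and C3-TAg, with exact 95% Poisson intervals. Hbegf ran from 1109 to 38.6 CPM in C3-TAg and from 378 to 121 CPM in WT, crossing between the second and the third step.

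The last comparison set C3-TAg against WT within each compartment. Among hormone-sensing cells the level of 6 of 8 members was higher in C3-TAg by 1.5-fold or more and of none lower, against 32.0% of all genes past that fold, 22.8% higher and 9.20% lower. Egfr was 8.30-fold higher (5.59 to 12.7), Hbegf 5.98-fold (5.70 to 6.28), Ereg 12.1-fold (5.48 to 31.5), Btc 2.87-fold (2.45 to 3.36), Erbb4 2.52-fold (1.75 to 3.68) and Tgfa 1.64-fold (1.41 to 1.91). Erbb2 (1.31-fold, 1.15 to 1.5) and Erbb3 (1.20-fold, 1.13 to 1.28) were within 1.5-fold. Of the genes called, 71.2% were higher, and 51.6% after TMM scaling, which lowered each log2 ratio by 0.21.

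Marker lists moved beside them: of the hormone-sensing markers outside the rule 4 of 7 were lower in C3-TAg and none higher (median log2 ratio -0.73), of the secretory luminal markers 5 of 10 were higher and 2 lower (0.45), of the basal markers 3 of 6 were higher and 2 lower (1.31), and of the immediate early genes 3 of 14 were higher and 2 lower (0.20). Several of these ratios moved when cells with Areg alone or with G2M transcripts were left out. Without the Areg-alone cells the Egfr ratio was 2.50, Hbegf 2.13, Ereg 5.39, Erbb4 1.78, Tgfa 1.29 and Btc 2.96, and 5 members were past 1.5-fold. Without cells that held at least 2 G2M UMIs the Egfr ratio was 1.34, Hbegf 2.06, Ereg 4.20, Erbb4 1.61, Tgfa 1.28 and Btc 2.79, and 4 members were past it. The Btc ratio stayed within 2.48 to 3.07 under every alternative run. In C3-TAg hormone-sensing cells with at least 2 G2M UMIs, of which there were 428, Egfr was 31.0 CPM (26.1 to 36.5) and Hbegf 1304 (1271 to 1337), against 1.29 (0.738 to 2.10) and 162 (155 to 169) in the other 1596. Prlr was 417 and 1909 CPM in the same cells, and Btc 28.6 and 26.3.

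Among casein-high cells 3 of the 7 measured members passed 1.5-fold toward C3-TAg, Erbb4 (2.14-fold, 1.72 to 2.68), Tgfa (1.82-fold, 1.55 to 2.13) and Btc (1.65-fold, 1.31 to 2.08), against 41.6% of all genes past that fold and 31.1% higher. Egfr (0.945, 0.849 to 1.05), Erbb2 (1.49, 1.31 to 1.69) and Erbb3 (1.38, 1.31 to 1.46) were within 1.5-fold. Hbegf was 1.35-fold lower in C3-TAg (1.30 to 1.40), with ratios of 0.586 to 0.981 over the alternatives run. Ereg had 4 UMIs against 1. Under TMM scaling, which lowered each log2 ratio by 0.34 and left 50.1% of called genes higher in place of 74.8%, Hbegf passed 1.5-fold lower at a ratio of 0.586, and Tgfa (1.44) and Btc (1.31) no longer passed. Btc turned to a ratio of 0.674 without the G2M cells, whose removal left 594 of the 2492 C3-TAg casein-high cells, and to 0.908 when cells were thinned to 2000 UMIs before they were placed.

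Among casein-low cells 3 of 8 members passed 1.5-fold toward C3-TAg, against 52.5% of all genes past that fold and 37.8% higher. These were Hbegf (2.29-fold, 2.19 to 2.40), Btc (2.40-fold, 1.64 to 3.65) and Ereg, with 52 UMIs against 0, at least 2.55-fold higher when WT is set at 3 counts; the exact interval, which counts WT as 0, starts at 2.0. Without the G2M cells Ereg had 4 UMIs against 0, under the minimum of 20, and was no longer called. Its value of 1.40 there again sets WT at 3 counts and is a lower bound, not a measured ratio. Egfr (1.02, 0.853 to 1.23), Erbb2 (1.14, 0.950 to 1.39), Erbb3 (1.22, 1.09 to 1.37), Erbb4 (1.25, 0.902 to 1.79) and Tgfa (1.47, 1.18 to 1.84) were within 1.5-fold. TMM scaling lowered each log2 ratio by 0.30 and left 53.8% of called genes higher in place of 72.0%. Of these cells 19 of 576 in WT and 10 of 3401 in C3-TAg passed the cut for non-epithelial cells and 7 and 4 were basal. Of the basal markers 3 of 7 were higher and 4 lower in C3-TAg, with Krt5 at 45.5 CPM in WT and 0.836 in C3-TAg and Krt14 at 147 and 411. Of the secretory luminal markers 8 of 10 were lower and none higher (median log2 ratio -1.65), of the hormone-sensing markers outside the rule 5 of 6 were lower (-1.86), and of the non-epithelial markers 8 of 11 were lower (-1.99). The part of these differences in the members' ratios was not tested.

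**Figure D5:**
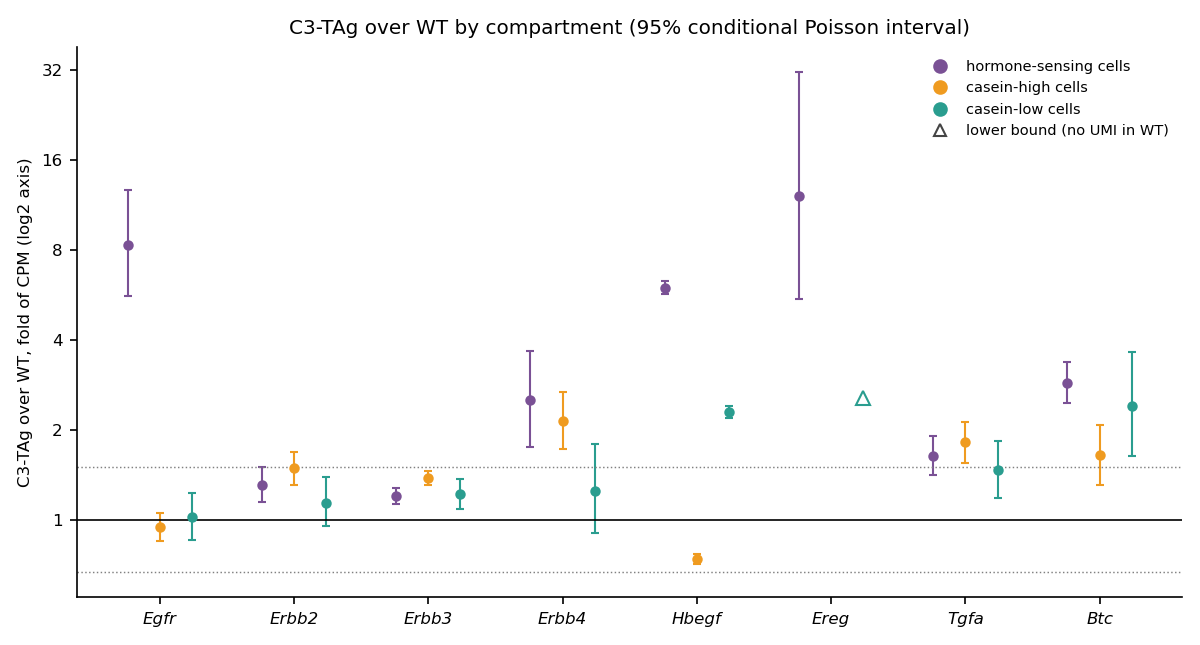
Ratio of C3-TAg to WT (log axis) for each member in the hormone-sensing, casein-high and casein-low cells, with exact 95% intervals for counting error and lines at 1 and at 1.5-fold either way; the open triangle for Ereg is a lower bound. Egfr was 8.30-fold higher in hormone-sensing cells and within 1.5-fold in the other compartments, and Hbegf was 5.98-fold and 2.29-fold higher in hormone-sensing and casein-low cells but 1.35-fold lower in casein-high cells.

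The share of cells in which a member was found was taken at a fixed depth per cell, after thinning. At 2000 UMIs Egfr was found in 0.148%, 3.75% and 6.15% of WT hormone-sensing, casein-high and casein-low cells and in 1.24%, 3.53% and 6.24% of those in C3-TAg. Without thinning the shares were 0.809%, 20.8% and 18.6% in WT and 6.03%, 18.2% and 22.1% in C3-TAg. Hbegf at 2000 UMIs was found in 13.6%, 19.6% and 34.6% of the cells of the 3 compartments in WT, and in 28.6%, 16.6% and 57.0% in C3-TAg. Without thinning its lowest share was 34.7% in WT hormone-sensing cells and its highest 76.9% in C3-TAg casein-low cells. At 2000 UMIs the Egfr shares had the order of its CPM levels, as did those of Hbegf except that C3-TAg hormone-sensing cells, above WT casein-low cells in CPM, were below them in share, so that no order is read for that pair. Unthinned shares go against the CPM for Egfr in WT casein-high and casein-low cells, and no order is read from them.

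Non-epithelial cells were set beside these shares, but whether they express Egfr or Hbegf themselves was not tested. Their median depth was 4988.5 UMIs for WT and 5416.5 for C3-TAg. At 2000 UMIs Hbegf was found in 2 of 19 of them in WT (10.5%) and in 2 of 9 in C3-TAg (22.2%). Egfr was found in 2 of 19 in WT (10.5%) and in 0 of 9 in C3-TAg, which allows up to 33.3%. The Egfr shares of all 3 WT compartments and the Hbegf share of C3-TAg casein-high cells lie below these values, which rest on 2 cells each. The Egfr shares of C3-TAg lie below the limit of 33.3%. Such shares are not read as expression on their own. Erbb3 was found in 0 of 19 and 0 of 9, which allows shares up to 15.8% and 33.3%, and in 12.4% to 20.2% of cells over the 6 compartments. In 20 of the 24 pairs of member and compartment the share at 2000 UMIs was higher in C3-TAg. Some pairs differed little, such as Egfr in casein-low cells (6.15% in WT and 6.24% in C3-TAg). The same count was not taken over all genes. Their median log2 CPM ratio also lay toward C3-TAg, at 0.15, 0.32 and 0.35 in hormone-sensing, casein-high and casein-low cells. The count is therefore not read as a result about the members.

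Hbegf was unevenly spread within compartments. At 5000 UMIs per cell 496 C3-TAg casein-low cells (16.5%) held at least 10 Hbegf UMIs and 56.2% of the Hbegf in that compartment, and 27.4% of the cells held none. In C3-TAg hormone-sensing cells 122 cells (6.38%) held 55.9% of it, and 56.7% of the cells held none. WT had 26 such casein-low cells (5.46%, with 35.6% of the Hbegf), 68 casein-high cells (1.86%, with 25.5%) and 1 hormone-sensing cell. Fewer than 1 in 5 cells thus carried most of the Hbegf RNA in the hormone-sensing and casein-low compartments of C3-TAg.

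The same depth, reached by 2630, 3653 and 476 cells of the WT compartments and 1911, 2430 and 3007 of C3-TAg, was used to sort cells by what they held; shallower cells were left out. At least 1 of the 4 receptors was found in 40.6%, 38.9% and 48.1% of WT hormone-sensing, casein-high and casein-low cells and in 50.8%, 48.8% and 52.1% in C3-TAg. At least 1 of the 4 ligands was found in 31.5%, 32.7% and 53.4% in WT and 51.8%, 33.1% and 76.4% in C3-TAg. Cells with both a receptor and a ligand made up 13.0%, 13.6% and 25.8% in WT and 27.5%, 16.1% and 40.2% in C3-TAg. Cells with a ligand and no receptor made up 18.5%, 19.1% and 27.5% in WT and 24.3%, 17.0% and 36.1% in C3-TAg, and cells with a receptor and no ligand 27.6%, 25.3% and 22.3% in WT and 23.3%, 32.7% and 11.9% in C3-TAg. Ligand and receptor RNA was thus found in the same cells in each compartment, with free RNA not removed. Whether this was more often than their separate shares would give was not tested. C3-TAg casein-low cells had the highest shares of the 4 ligands and of both. Areg, a rule gene at 3192 and 3589 CPM in WT and C3-TAg hormone-sensing cells, was not among these ligands. The shares therefore do not show which cells held the most EGFR ligand RNA.

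Hbegf and Egfr were set side by side within cells at the same depth. In C3-TAg hormone-sensing cells Hbegf was found in 59 of the 66 cells with Egfr (89.4%, 79.4 to 95.6) and in 41.6% (39.4 to 43.9) of the cells without it. These 66 cells were not split by the rule genes they held. In C3-TAg casein-low cells the shares were 77.7% (73.2 to 81.7) and 71.9% (70.1 to 73.6), and in WT casein-high cells 43.2% and 28.7%. The share was higher in cells with Egfr also in WT casein-low cells, at 61.8% (47.7 to 74.6) against 48.7% (43.8 to 53.6). In C3-TAg casein-high cells it was 34.8% (28.6 to 41.5) against 27.6% (25.7 to 29.5). The intervals overlapped in both of these and in C3-TAg casein-low cells, so that no difference is read there. WT hormone-sensing cells had 7 cells with Egfr. Erbb2 and Erbb3, which signal as a pair, were found in the same cell in 3.69%, 1.70% and 3.15% of WT cells and 5.13%, 3.13% and 4.19% of C3-TAg cells. Erbb3 was found in 41.6% (35.2 to 48.2) of WT hormone-sensing cells with Erbb2 and 34.3% (32.4 to 36.2) of those without it. These intervals overlapped. In C3-TAg the shares were 41.4% and 40.6%.

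The other EGF-family ligands were read for context. Areg, which the compartment rule used, was 3192, 18.3 and 32.6 CPM in WT and 3589, 25.7 and 90.0 in C3-TAg. Epgn, which encodes epigen, was 8.75, 0.299 and 0.421 CPM in WT and 43.0, 2.83 and 24.5 in C3-TAg, and was 58.1-fold higher in C3-TAg casein-low cells on a WT count of 2 UMIs (interval 16.0 to 481). Nrg1, a ligand of ERBB3 and ERBB4, was 10.3 CPM in WT casein-low cells, where the basal gene Krt5 was 45.5 CPM, and at most 1.82 elsewhere, and the part of basal cells in it was not tested. Nrg4, an ERBB4 ligand, was found mainly in hormone-sensing cells (2.67 CPM in WT and 1.29 in C3-TAg). Egf stayed under 0.5 CPM in all 6 compartments and Nrg3 at 0.

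The lists of pathway genes were counted in the same way, beside 32.0%, 41.6% and 52.5% of all genes past 1.5-fold between genotypes in hormone-sensing, casein-high and casein-low cells. In hormone-sensing cells these shares were 24.1% without the Areg-alone cells and 22.3% without the G2M cells. No ratio past 1.5-fold would change direction under the TMM shifts given above. Of the sheddases and their regulators, 3 of 10 measured genes passed 1.5-fold toward C3-TAg in hormone-sensing cells and none toward WT (median log2 ratio 0.36, against 0.15 for all genes). The sheddase inhibitor genes Timp3, at 43.0 against 1.35 CPM (31.8-fold), and Timp1 (2.34-fold) were among them. Without the Areg-alone cells the Timp3 ratio was 9.92 and that of Timp1 1.84, and without the G2M cells 5.31 and 1.78. In casein-high cells 3 were higher and 2 lower and in casein-low cells 4 higher and 2 lower. Adam17, the sheddase of several EGF-type precursors, was 1.81-fold higher in C3-TAg in the former and 2.09-fold in the latter. The TMM shift brought its casein-high ratio within 1.5-fold. Timp1 was 3.26-fold lower in casein-high and 2.94-fold lower in casein-low cells. Adam10 was 4.74-fold higher in hormone-sensing than other cells of WT and 3.89-fold in C3-TAg.

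Of the adaptors and kinases that relay ERBB signals, 4 of 24 were higher in C3-TAg hormone-sensing cells and none lower (median log2 ratio 0.22), 3 higher and 1 lower in casein-high cells, and 6 higher and 1 lower in casein-low cells. In casein-high cells 1 adaptor passed in place of 4 without the G2M cells, and 1 under TMM scaling, while the stricter filter gave 10 in place of 4 in hormone-sensing cells. Pik3cb, a PI3K catalytic subunit, was higher in each, by 2.98-fold, 1.81-fold and 2.17-fold. Its hormone-sensing ratio was 1.83-fold without the Areg-alone cells and 1.62-fold without the G2M cells. The TMM shift brought its casein-high ratio within 1.5-fold. Pik3r1, a regulatory subunit, was 1.5-fold lower in C3-TAg casein-high and 2.41-fold lower in casein-low cells. Eps8, an EGFR substrate that acts on actin, was 75.2-fold higher (54.1 to 108) in hormone-sensing than other cells of WT and 12.7-fold in C3-TAg.

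Feedback inhibitors and genes of receptor turnover were higher in C3-TAg hormone-sensing cells for 7 of 19 measured and lower for none (median log2 ratio 0.31). Spry1 (5.99-fold) and Spry2 (3.20-fold), inhibitors of RAS-MAPK signalling, were among them. The count was 3 of 18 without the Areg-alone cells, with Spry1 at 3.97-fold and Spry2 at 1.5-fold, and 3 of 18 without the G2M cells, with Spry1 at 3.51-fold and Spry2 at 1.33-fold. In casein-high cells 3 were higher and 2 lower, and Errfi1, which encodes the EGFR inhibitor MIG6, was 843 CPM in WT and 450.4 in C3-TAg, 1.87-fold lower. In casein-low cells 4 were higher and 1 lower, with Spry1 23.6-fold higher (13.1 to 47.3) and Socs3 3.06-fold lower; TMM scaling put 10 past 1.5-fold in place of 5. Errfi1 and Spry2 were 4.68-fold and 6.09-fold lower in hormone-sensing than other cells of WT, as was Egfr.

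Of the pathway lists, transcripts known as MAPK output had the highest median ratio in hormone-sensing cells, with 7 of 12 past 1.5-fold toward C3-TAg, 1 toward WT and a median log2 ratio of 1.03 against 0.15 for all genes. Dusp5, a phosphatase of ERK, went from 19.0 to 193 CPM (10.1-fold) and Phlda1 from 117 to 625 (5.35-fold), whereas the cyclin gene Ccnd1 was 3.22-fold lower, at 36.1 against 116 CPM. Without the Areg-alone cells 7 were higher and 2 lower, with Dusp5 at 3.57-fold and Phlda1 at 3.25-fold. Without the G2M cells 6 were higher and 2 lower, with Dusp5 at 3.21-fold and Phlda1 at 2.96-fold. In casein-high cells 4 were higher and 2 lower (median 0.24 against 0.32), with Dusp6, another ERK phosphatase, 2.05-fold higher and Ier3 2.71-fold lower; without the G2M cells 2 were higher and 1 lower. In casein-low cells 6 were higher and 2 lower (median 0.66 against 0.35), with Dusp6 5.95-fold higher and Ccnd1 5.01-fold lower. Ccnd1 was lower in C3-TAg in each compartment, but within 1.5-fold in casein-high cells without the G2M cells (1.23-fold). All 20 G2M genes were higher in each compartment, with median log2 ratios of 5.80, 6.27 and 5.84.

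Of the coreceptors and surface partners, 2 of 10 were higher and none lower in C3-TAg hormone-sensing cells, 2 higher and 2 lower in casein-high cells and 2 higher and 3 lower in casein-low cells. The heparan sulfate carrier gene Sdc1 was higher in C3-TAg in each compartment, by 2.24-fold in hormone-sensing, 2.46-fold in casein-high and 2.88-fold in casein-low cells. In hormone-sensing cells it was 1.31-fold higher without the Areg-alone cells and 1.34-fold without the G2M cells, within 1.5-fold. Cd44 was 5.80-fold higher in hormone-sensing cells, 1.96-fold without the Areg-alone cells and 1.62-fold without the G2M cells, and 2.44-fold lower in casein-high cells. The mucin gene Muc1 was 2.36-fold lower in casein-high and 4.38-fold lower in casein-low cells, and Muc4, which encodes a binding partner of ERBB2, was 5.67-fold lower in casein-low cells.

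Genes whose levels over the 6 compartments ran most like each member were ranked by the root mean square distance of mean-centred log2(CPM + 1) values among 7275 genes. Egfr was closest to Bach2 (0.10), Plxdc2 (0.21) and Clmn (0.23), with 11 genes within 0.3. Hbegf was closest to Unc5b (0.25) and Grasp (0.29), with 3 within 0.3, and Btc to Oasl2 (0.22) and 1700017B05Rik (0.27), with 2. Erbb3, flat over the compartments, had 2389 genes within that distance.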

How the data were processed

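Droplet libraries (10x Genomics 3′ v3.1) were aligned to mm10 with Cell Ranger 3.1.0, per the submitters' processing notes. The deposited matrices hold UMI counts per gene and barcode, which the authors did not normalize; the rule that separated cells from empty droplets is not stated in the labels. WT had 8993 barcodes with 91133082 UMIs and C3-TAg 9575 with 91932121, and the shallowest held 502 and 500. Barcodes with at least 500 genes, 1000 UMIs and at most 10% mitochondrial UMIs were kept (7406 and 8458). Scrublet in scanpy 1.11.5 marked 367 (4.96%) and 541 (6.4%) as doublets, which were removed, leaving 7039 and 7917 cells; 17 kept cells in each had a barcode present in both libraries.

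Counts were summed per library and compartment. Ratios are of CPM, with exact conditional Poisson intervals (scipy 1.17.1), and a gene with at least 20 UMIs over both groups was called at 1.5-fold. The ratio step was tested on simulated data. Cells were thinned to 2000 or 5000 UMIs for shares, and shallower cells left out. TMM factors came from edgeR 4.0.16. Named pathway genes were recomputed without the Areg-alone and the G2M cells. Non-epithelial cells had at least 10 UMIs per 10000 of leukocyte, endothelial or fibroblast markers and more of these than of epithelial markers. All members are named; of each pathway list up to 2 genes with the highest and 2 with the lowest ratio per comparison, among those with at least 20 CPM in a group, could be named. For each member the 3 genes with the most similar pattern were ranked, of which some are given. Nrg1, Nrg4, Nrg3 and Egf were named after their values were seen. The members and lists were chosen with earlier results of these data known. Hgs, with 2 rows under its symbol, was not used. Gene positions are from GENCODE M21 and promoters from RefSeq (GRCm38.p6). Because the T antigen and GFP have no row in the matrices used here, the genotypes were not checked by transgene counts.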

Additional observations from a re-analysis of the deposited data

Results flagged for a closer look

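The C3-TAg to WT ratio of Hbegf lay on opposite sides of 1 in different compartments, with intervals that leave out 1, at 5.98 in hormone-sensing cells and 2.29 in casein-low cells but 0.740 in casein-high cells. The levels behind these ratios were 78.8 and 471 CPM, 419.7 and 961 CPM, and 182 and 135 CPM in WT and C3-TAg, respectively. With 1 library per genotype the difference between compartments was not tested. In casein-high cells the ratio was 0.603 without the G2M cells and 0.586 with TMM scaling. Over all alternatives run it lay between 0.586 and 0.981, so that it stayed below 1 but at its highest differed little from 1.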

How the results depend on the processing

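Under the alternatives, 1458 of 1710 member ratios, shares and list counts stayed within their limits and 248 moved. Another 4, each a ratio called at 1.5-fold before, crossed to the other side of 1. A ratio that was not called at first was never counted as crossing. Hbegf in hormone-sensing against other C3-TAg cells, for example, went from 0.823 to 1.76 with the stricter filter. Of 128 counts of called members and of higher shares, 124 stayed within 1.5 times and 4 moved. The number of members called in casein-low cells between genotypes went from 3 to 5 with a hormone-sensing threshold of 10 per 10000 and to 5 with a casein threshold of 1%. The number called between casein-high and casein-low cells of C3-TAg went from 7 to 4 with TMM scaling, and that between genotypes in casein-high cells from 3 to 1 when cells were thinned to 2000 UMIs before they were placed. Ereg in hormone-sensing against other C3-TAg cells went from 3.46 to 0.871 with the threshold of 10. Btc between genotypes in casein-high cells went from 1.65 to 0.674 without G2M cells and to 0.908 after thinning, and between casein-high and casein-low WT cells to 1.38 after thinning. The causes were not tested. A stricter filter (at least 2000 UMIs and at most 5% mitochondrial) kept 993 of 2718 WT and 594 of 2024 C3-TAg hormone-sensing cells and gave 13.2 for Egfr, 11.3 for Hbegf and 74.7 for Ereg between genotypes there. Ereg gave no value between genotypes in casein-high cells without G2M cells or in casein-low cells after thinning. Leaving out the Areg-alone cells and the basal cells was chosen after seeing the data. No paired analysis was possible because each genotype has 1 library. Depth limits Ereg, with 8 UMIs in WT, most.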
